A study of Mus musculus with 6 samples.

Results

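Z-disc, M-band and thin filament genes were examined in the mouse heart with and without αMHC-Cre in a Fog2flox/delta background. The set holds 32 structural genes of the sarcomere, without myosins, actins or troponins. They were chosen by name, with earlier results of these data known. Of these, 31 were matched to 74 of the 45101 probe sets on the array, and 68 of the 74 probe sets, covering 30 genes, were bright enough to be tested. Trim55 was matched to none and is not analysed here. Neb was matched to a single probe set, which was too dim to test.

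The sarcomere is the contractile unit of striated muscle. Its ends are the Z-discs, where α-actinin crosslinks the actin-based thin filaments, and its centre is the M-band, where myomesins hold the thick filaments. Titin spans from Z-disc to M-band, tropomyosins line the thin filament, and tropomodulins and leiomodins act at its pointed end. Mutations in many of these genes are known to cause cardiomyopathy.

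The 6 hearts came from male mice aged 6 to 7 weeks, and RNA was taken from the apex, 1 heart per array. Every mouse carried 1 floxed and 1 deleted (delta) allele of Fog2 (official symbol Zfpm2), a cofactor of GATA transcription factors. The no Cre group (n = 3) had no transgene, so these hearts were not wild type but carried 1 deleted allele. The αMHC-Cre group (n = 3) carried in addition a Cre transgene driven by the α-myosin heavy chain promoter, which is active in cardiomyocytes. No group with Cre but without the floxed allele was analysed here, so the effect of the transgene cannot be told apart from that of the deletion. The question is which transcripts differ once the floxed allele can be removed in heart muscle cells. Hearts of the αMHC-Cre group are also called carriers. Values are log2 signals of probe sets, each made from several short probes to a transcript, and differences are αMHC-Cre minus no Cre.

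Array medians lay between 5.72 and 5.81, and the array maxima between 13.97 and 14.00. The cardiomyocyte markers, 7 of 7 measured, had mean signals of 12.40 to 13.86 on their brightest probe sets. In the limma fit 0 of these passed and 0 had an unadjusted p under 0.05. All but Ryr2 (12.40) had a mean of 13 or more, where 0 of 101 probe sets of the array passed. They thus cannot show that cardiomyocyte signal was equal. The dimmest probe set of Tnnt2 differed by -0.46 (unadjusted limma p 0.010), with groups that did not overlap. Those of Myh6 and Ryr2 differed by -0.37 and 0.26, and none of these passed. In bulk tissue, fewer cells of a type and less RNA per cell cannot be told apart. Of 2 probe sets of Zfpm2, the dimmer was at 6.34, 6.40 and 6.65 in no Cre hearts and at 5.46, 5.61 and 5.65 in carriers, while the brighter read 8.86, 8.83 and 8.95 against 10.71, 10.48 and 10.50. The stretch of Zfpm2 that each probe set targets was not known, and neither checks the deletion by itself. The fibroblast list moved with the groups: 4 of its 7 markers rose, and its summed signal was 13.38 to 13.62 (log2) without Cre and 13.98 to 14.15 with Cre. The summed signal of the endothelial list, which includes Vwf, was 11.91 to 12.16 without Cre and 12.25 to 12.32 with Cre. Of its 7 markers, 0 were lower, 1 was called (Vwf, 2.17-fold higher) and 2 had an unadjusted limma p under 0.05. The other markers differed by 0.0008 (Tie1) to 0.46 (Emcn), and the sum without Vwf was not tested. The part of these lists in the results below was not tested. The 3' minus 5' signal of Actb, a measure of RNA quality, was 0.30 to 0.41 without Cre and 0.25 to 0.29 with Cre. That of Gapdh went the other way, at -0.14 to -0.08 without Cre and -0.07 to -0.04 with Cre. The part of RNA quality was not tested either.

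Most of these structural genes did not pass the test, and 2 genes stood far from the rest. Mybpc2, the fast skeletal form of myosin-binding protein C, rose 7.06-fold with Cre. Tmod4, the skeletal muscle tropomodulin, fell 3.29-fold. Smaller rises passed on 1 of 2 probe sets of the filamin gene Flnc and on 2 of 7 probe sets of the Z-disc adaptor gene Pdlim5. In all, 5 of 68 tested member probe sets (7.35%) passed, 4 higher and 1 lower, where the background over all tested probe sets was 5.23% (3.43% higher and 1.79% lower). Taken by the brightest probe set of each gene, 2 of 30 members passed (6.67%), 1 higher and 1 lower, against 6.24% of all 13062 genes (4.2% higher and 2.04% lower). Both shares are near the background. The median difference was 0.07 over the member probe sets and -0.02 over all tested ones. No member was called without the filter on dim probe sets, a setting in which 0.611% of all probe sets passed, 16 of 74 member probe sets had an unadjusted p under 0.05 and limma's lowest adjusted p was 0.056, for Mybpc2.

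**Figure D1:**
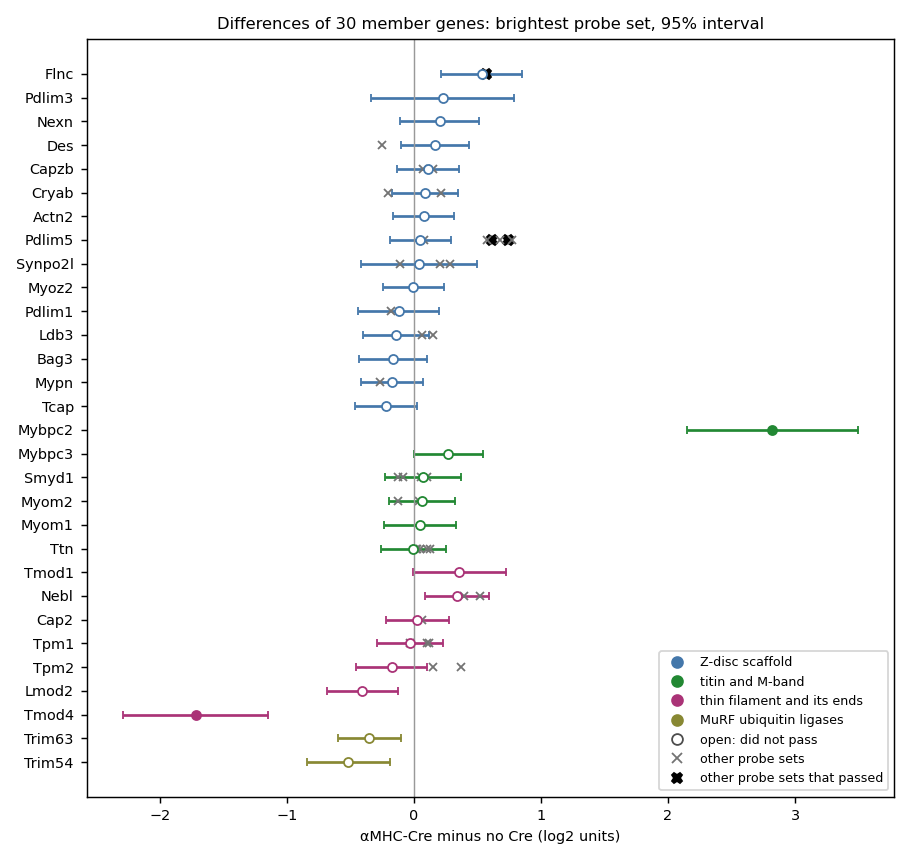
Difference between αMHC-Cre and no Cre hearts (log2 units, x axis) for the brightest probe set of each of 30 member genes, grouped by role, with the 95% interval of the limma fit. Filled circles passed at an adjusted p of 0.05, thin crosses mark the other tested probe sets of a gene and heavy black crosses those that passed; Mybpc2 at 2.82 and Tmod4 at -1.72 lie apart from all other members.

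Judged by the brightest probe set alone, 28 member genes did not pass. The 95% intervals of these 28 probe sets lay within -1 and 1 on the log2 scale, which is 2-fold either way, and those of 19 lay within -0.5 and 0.5. They do not bound the genes as a whole: 3 dimmer probe sets of Pdlim5 had upper limits of 1.05, 1.14 and 1.30, and 5 of the 28 read near the array maximum. Separate groups, with no overlap, were seen for 14 of the 30 genes (46.7%), 7 of them higher and 7 lower with Cre, against 26.1% of all genes. For probe sets the share was 36.8%, against 23.5% of all tested. The members were chosen with earlier results of these data known, so setting these shares against the background tests nothing. The members are bright, with a median level of 10.28 against 7.11 for all tested probe sets. With a mean of 11 to 13, no overlap was seen for 52.6% of 19 member probe sets and 36.2% of all. With a mean under 11 the shares were 34.1% of 44 member probe sets and 23% of all, and at 13 or more 0 of 5 and 32.7%.

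**Figure D2:**
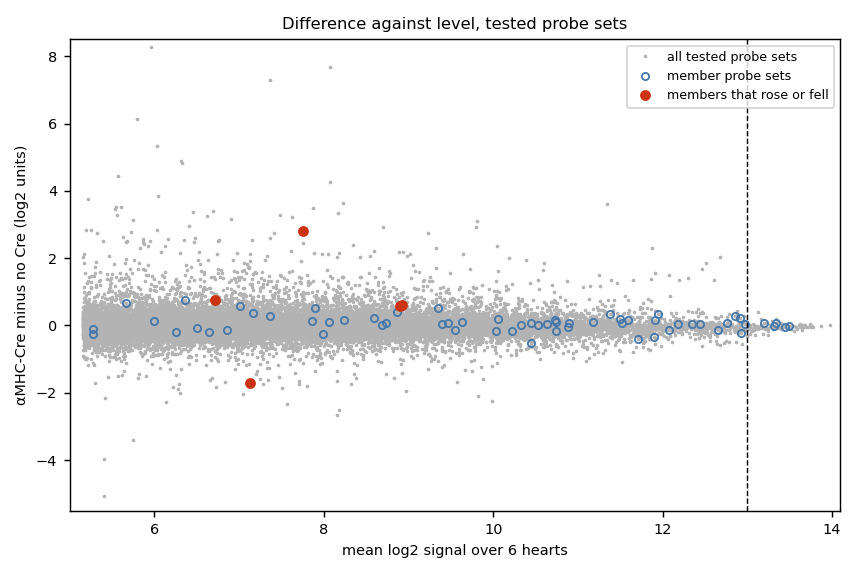
Difference between αMHC-Cre and no Cre hearts (log2 units, y axis) against the mean log2 signal over 6 hearts (x axis) for 27022 tested probe sets (grey points), with the 68 member probe sets as open circles and the 5 that rose or fell filled red. The dashed line marks a level of 13, above which no probe set of the array passed; the 5 member probe sets there differ by -0.03 to 0.09.

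At the Z-disc, 15 member genes with 34 tested probe sets were measured. Judged by its brightest probe set, none of the 15 passed in the limma fit, and 1 had an unadjusted p under 0.05. Of the 34 probe sets, 3 rose and 0 fell (8.82%), while 8 had an unadjusted p under 0.05. Of all 27022 tested probe sets, 5.23% passed and 4771 had an unadjusted p under 0.05 in the same fit.

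Flnc encodes filamin C, which crosslinks actin at the Z-disc and the cell membrane of muscle. Its probe set 1447812_x_at read 8.76, 8.47 and 8.60 in no Cre hearts and reached 9.07, 9.17 and 9.30 in the carriers of Cre. The groups did not overlap. The rise was 0.57 ± 0.13 (SE; limma adjusted p 0.035). The suffix x marks probes that may also match other transcripts. The brighter probe set 1449073_at, without that suffix, was at 9.23, 8.91 and 9.12 in no Cre hearts and at 9.48, 9.55 and 9.82 in carriers. It differed by a similar 0.53 ± 0.14 but did not pass (adjusted p 0.067). The call of 1447812_x_at was kept only without no_Cre 1 among the 6 fits that left out 1 heart (adjusted p 0.049 to 0.12).

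Of 2 overlapping promoter windows of Flnc, 1 is shown as an example from a member with a called probe set. The same letters were searched in all members. Each window holds 250 bases before and 50 bases after a RefSeq start, written 5′ to 3′ along the gene. Capitals mark any of 5 short motifs on either strand: AGATAA, which GATA factors bind, the TATA box TATAAA, the MCAT element CATTCC of TEAD factors, and the MEF2 and CArG elements of muscle genes. The Flnc window at chr6:29433006-29433305 (GRCm38.p6, plus strand) holds 1 match, CATTCC, which begins 104 bases before the start.
Flnc: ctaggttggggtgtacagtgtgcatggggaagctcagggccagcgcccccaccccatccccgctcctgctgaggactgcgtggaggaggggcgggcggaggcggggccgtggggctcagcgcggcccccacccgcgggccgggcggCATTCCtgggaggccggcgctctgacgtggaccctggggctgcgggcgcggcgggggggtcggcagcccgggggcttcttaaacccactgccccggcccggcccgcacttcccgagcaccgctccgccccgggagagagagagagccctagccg

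Pdlim5 encodes a PDZ-LIM protein (also called ENH) that tethers protein kinases to α-actinin at the Z-disc. It has 7 tested probe sets, the most of any member, and the brightest 2 gave other values than the dimmer 5. This split was seen in the values and was not tested. The 2 brightest, 1429783_at and 1421413_a_at, differed by 0.05 ± 0.11 (SE) and 0.08 ± 0.12. The other 5 differed by 0.57 to 0.77, and in each of them all hearts with Cre read higher than all hearts without it. With 64 added to the unlogged signal, 3 of these 5 differences were over 1.5 times smaller: 0.29 for 1422861_s_at, 0.42 for 1422862_at and 0.45 for 1450786_x_at.

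Of these 5, 2 passed. Probe set 1427475_a_at was at 8.67, 8.40 and 8.76 in no Cre hearts and at 9.42, 9.13 and 9.12 in carriers, a rise of 0.62 ± 0.14 (limma adjusted p 0.042). Probe set 1450786_x_at was at 5.92, 6.56 and 6.54 in no Cre hearts and at 7.17, 7.05 and 7.03 in carriers, a rise of 0.74 ± 0.18 (adjusted p 0.046). In 1450786_x_at the low value of no_Cre 1 widened the spread of its group. The remaining 3 had an adjusted p of 0.051, 0.054 and 0.107. The suffixes a, s and x mark probes shared by transcripts of the gene, shared between genes or open to cross-matching. The exons behind each Pdlim5 probe set were not known. Leaving out single hearts ended the call of 1427475_a_at in all 6 fits (adjusted p 0.054 to 0.13) and that of 1450786_x_at in all but the fit without no_Cre 2 (0.048 to 0.14).

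**Figure D3:**
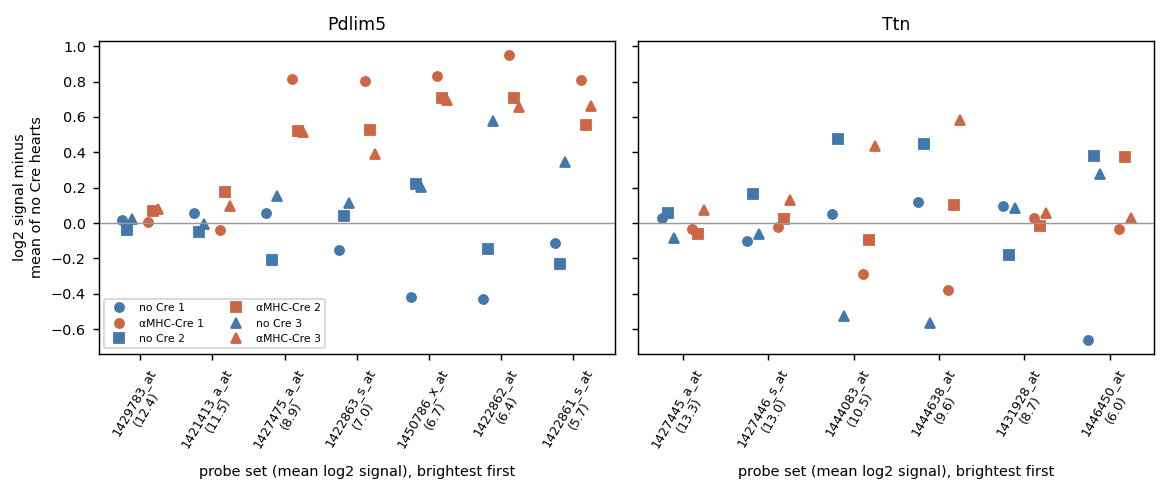
Log2 signal of each heart minus the mean of the no Cre hearts (y axis) for the tested probe sets of Pdlim5 and Ttn, brightest first along the x axis, with each probe set's mean log2 signal in parentheses. Blue marks no Cre hearts and orange αMHC-Cre hearts, with 1 symbol per replicate number; the 5 dimmer Pdlim5 probe sets separate the groups, while the Ttn probe sets 1444083_at and 1444638_at spread widely within both.

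For 5 further Z-disc genes the groups did not overlap on the brightest probe set although the test was not passed. Actn2, the α-actinin of cardiac Z-discs, was at 12.72, 12.71 and 12.73 in no Cre hearts and at 12.82, 12.76 and 12.82 in carriers. Tcap, which caps the end of titin in the Z-disc, was at 12.99, 13.02 and 13.09 in no Cre hearts and at 12.88, 12.78 and 12.79 in carriers. All carriers were above the no Cre hearts for Actn2 and below them for Tcap. The differences were 0.08 ± 0.11 (SE; limma adjusted p 0.79) and -0.22 ± 0.11 (0.35).

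Mypn encodes myopalladin, which links α-actinin with nebulin-like proteins. Its brighter probe set was at 10.31, 10.34 and 10.27 in no Cre hearts and at 10.16, 10.08 and 10.15 in carriers. Its dimmer probe set was at 8.09, 8.19 and 8.08 in no Cre hearts and at 7.97, 7.76 and 7.84 in carriers. Both of its probe sets were lower in every heart with Cre, with differences of -0.17 and -0.27, without passing (limma adjusted p 0.47 and 0.27).

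Ldb3, the PDZ-LIM protein Cypher or ZASP, was at 12.14, 12.18 and 12.11 in no Cre hearts and at 12.05, 11.87 and 12.09 in carriers. Its 3 probe sets differed by -0.14 to 0.15, so they did not share a direction. Capzb, the β-subunit of CapZ at the barbed end of the thin filament, was at 11.10, 11.13 and 11.15 in no Cre hearts and at 11.17, 11.24 and 11.30 in carriers. All 3 tested Capzb probe sets were higher with Cre, by only 0.07 to 0.15.

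The other 8 Z-disc genes had overlapping groups on their brightest probe set. The small heat shock protein gene Cryab differed by 0.09 there, with 2 further probe sets at 0.21 and -0.20. Bag3, which acts in chaperone-assisted turnover of filamin, differed by -0.17 ± 0.12 (SE). Des, which encodes the intermediate filament desmin around the Z-disc, differed by 0.16 ± 0.12, and on its dimmer probe set by -0.25 ± 0.13. None of these 3 genes passed. Myoz2, the calcineurin-binding calsarcin, differed by -0.0044 ± 0.11.

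Nexn, the actin-binding nexilin, differed by 0.20 ± 0.14, Pdlim1, a PDZ-LIM relative, by -0.12 ± 0.14 and Pdlim3 by 0.22 ± 0.25. Without no_Cre 1 Nexn differed by 0.11, and Pdlim1 by -0.014 without no_Cre 3 and by -0.24 without no_Cre 2. Pdlim3 was measured with a wider spread than most members, from 7.99 to 8.80 without Cre and from 8.35 to 9.13 with Cre. Without no_Cre 3 its difference was -0.02. Synpo2l, an actin-binding Z-disc protein, differed by 0.04 ± 0.20 and was lowest in no_Cre 2, at 10.14 against 10.82 and 10.88. Without that heart Synpo2l differed by -0.20, so its direction depends on 1 heart.

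Of titin and the M-band and thick filament accessory genes, 6 members with 17 tested probe sets were measured, and 1 probe set passed (5.88%). The share over all tested probe sets was 5.23%. Mybpc2 encodes the fast skeletal isoform of myosin-binding protein C, a thick filament protein, while Mybpc3 encodes the cardiac isoform. Mybpc2 read 6.58, 5.60 and 6.87 in no Cre hearts and reached 8.90, 9.11 and 9.48 in the carriers of Cre. The lowest heart with Cre was thus above the highest heart without Cre by more than the range of either group. The rise was 2.82 ± 0.30 (SE; 95% interval 2.15 to 3.49; limma adjusted p 0.0010). It was called whichever heart was left out, with differences of 2.44 to 3.08, and with 64 added to the unlogged signal it was 2.11.

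Of 10 listed markers of skeletal muscle, 5 were tested, with a median difference of -0.35. In the limma fit 0 of them passed and 4 had an unadjusted p under 0.05: Atp2a1 differed by -0.53, Myh2 by -0.48 and Tnni2 by -0.35, against the direction of Mybpc2, and Mylpf by 0.48. The defining markers Myh1, Myh4, Myod1, Pvalb and Tnnt3 were among the dim probe sets left out. The log2 of the list's summed signal was 9.26 to 9.47 without Cre and 8.94 to 9.32 with Cre. Myl7, of the atrial list, was at 4.34, 3.39 and 3.42 in no Cre hearts and at 10.72, 11.42 and 10.92 in carriers, and it was the only 1 of that list's 4 tested genes that passed. Bmp10, Dkk3 and Sln of the atrial list were too dim to test, although Dkk3 differed by 1.67 and passed when no filter was set (limma adjusted p 0.0083). The other 3 tested atrial markers did not pass, with differences of -0.02 for Myl4, 0.06 for Nr2f2 and 0.27 for Kcnj3. The log2 of the list's summed signal, which includes Myl7, was 10.55 to 10.92 without Cre and 11.86 to 12.17 with Cre. Its part in the rise of Mybpc2 was not tested.

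The Mybpc2 promoter window is shown because this gene had the largest change among the members. It lies at chr7:44524620-44524919 (GRCm38.p6, minus strand) and holds 1 match in capitals, GGAATG, which is CATTCC on the opposite strand, from 62 bases before the start.
Mybpc2: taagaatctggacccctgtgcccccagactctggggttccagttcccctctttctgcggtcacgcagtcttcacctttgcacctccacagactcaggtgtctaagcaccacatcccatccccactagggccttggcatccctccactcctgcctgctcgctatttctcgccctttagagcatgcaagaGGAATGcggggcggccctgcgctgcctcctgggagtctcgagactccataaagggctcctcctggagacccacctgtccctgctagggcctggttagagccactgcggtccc

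Mybpc3 was at 12.81, 12.55 and 12.80 in no Cre hearts and at 12.999, 12.97 and 12.99 in carriers. The groups did not overlap, and the hearts with Cre differed from each other by only 0.03. The difference was 0.27 ± 0.12 (SE) and did not pass (limma adjusted p 0.29). Its interval, -0.0023 to 0.54, and that of Mybpc2 share no value.

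Ttn encodes titin, the elastic filament of the sarcomere, and is represented by 6 tested probe sets. Their differences ran from -0.01 to 0.12, and none passed (limma adjusted p 0.87 to 0.99). The brightest, 1427445_a_at, was at 13.34, 13.37 and 13.23 in no Cre hearts and at 13.28, 13.25 and 13.39 in carriers. Another pair of probe sets varied between hearts of the same group: 1444083_at was at 10.57, 10.99 and 9.99 in no Cre hearts and at 10.23, 10.42 and 10.95 in carriers. Probe set 1444638_at varied in much the same way, with 9.69, 10.02 and 9.01 without Cre and 9.20, 9.68 and 10.16 with Cre. In both, no_Cre 3 was the lowest and no_Cre 2 and αMHC-Cre 3 were the highest hearts, so this spread crossed the groups.

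The myomesin genes, whose proteins crosslink thick filaments in the M-band, differed little between the groups. Myom1 differed by 0.05 ± 0.13 (SE), and the 3 tested probe sets of Myom2 by -0.13 to 0.06. Smyd1, a muscle methyltransferase needed for thick filament assembly, had 5 tested probe sets with differences of -0.13 to 0.10. Without no_Cre 2 the brightest probe sets of Myom1 and Smyd1 differed by -0.0070 and -0.04, so no direction is given for either.

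On the thin filament and its ends, 7 member genes with 15 tested probe sets were measured, and 1 probe set passed (6.67%, against 5.23% of all). Tmod4 encodes the tropomodulin typical of skeletal muscle, and Tmod1 the main tropomodulin of the heart. Tropomodulins cap the pointed end of the thin filament and limit its length. Tmod4 was at 8.18, 7.32 and 8.46 in no Cre hearts and at 6.17, 6.35 and 6.30 in carriers. Every heart with Cre was below every heart without it, and the spread was 0.59 (SD, n = 3) without Cre against 0.09 with Cre. Tmod4 fell by 1.72 ± 0.25 on the log2 scale (SE; 95% interval -2.29 to -1.14; limma adjusted p 0.0056). The call was kept whichever heart was left out, with differences of -2.05 to -1.48. Of the 5 tested markers of skeletal muscle, 4 were lower with Cre, as Tmod4 was, by at most 0.53 in size and without passing, and their part in this result was not tested.

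The Tmod4 window is shown because Tmod4 was the member that fell. It lies at chr3:95124264-95124563 (GRCm38.p6, plus strand), and none of the 5 motifs was found in these letters.
Tmod4: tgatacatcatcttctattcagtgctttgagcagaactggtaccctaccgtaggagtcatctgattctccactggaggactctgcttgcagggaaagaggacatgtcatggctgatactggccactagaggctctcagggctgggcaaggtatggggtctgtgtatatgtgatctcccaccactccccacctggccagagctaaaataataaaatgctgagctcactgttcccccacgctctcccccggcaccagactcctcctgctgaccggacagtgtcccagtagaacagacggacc

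Promoter windows of RefSeq were matched for 26 of the 32 members, 33 windows in all. CATTCC was found in 11 of these 33 windows (33.3%), in 10 genes, against 14.7% of all 32851 windows. The MEF2 element was found in the windows of Mybpc3, Myoz2, Synpo2l and Ttn (12.1%, against 0.557% of all windows), and none of these genes passed the test. The CArG element was found in 4 windows (12.1%, against 1.63%), of Ldb3, Myom1 and Nebl. Overlapping windows of Ldb3 share the same CArG letters, as those of Flnc share the same CATTCC, so these stretches were counted more than once. AGATAA was found in 3 windows (9.09%, against 11.2%), of Myom1 and Nebl, and TATAAA in 4 (12.1%, against 13.6%). The A- and T-rich elements can overlap TATAAA. These are descriptions of letters and not of bound sites.

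Tmod1 was at 11.33, 10.85 and 11.40 in no Cre hearts and at 11.68, 11.50 and 11.47 in carriers. All carriers were above all no Cre hearts, of which no_Cre 2 was the lowest. The difference was 0.35 ± 0.16 (SE; limma adjusted p 0.30), and without no_Cre 2 it was 0.18. The intervals of Tmod1, -0.01 to 0.72, and of Tmod4 share no value.

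Lmod2 encodes the cardiac leiomodin, which lengthens thin filaments at the pointed end. It was at 11.91, 11.76 and 12.06 in no Cre hearts and at 11.57, 11.51 and 11.44 in carriers. The groups did not overlap, and the difference of -0.41 ± 0.12 (SE) did not pass (limma adjusted p 0.11).

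Nebl encodes nebulette, the cardiac relative of the giant skeletal protein nebulin, which binds thin filaments at the Z-disc. Its brightest probe set was at 11.82, 11.77 and 11.75 in no Cre hearts and at 12.19, 12.14 and 12.03 in carriers. Its probe set 1439897_at was at 7.59, 7.69 and 7.63 in no Cre hearts and at 8.38, 8.10 and 7.99 in carriers. All 3 probe sets were higher in every heart with Cre, with differences of 0.34 to 0.52, and none passed singly (limma adjusted p 0.057 to 0.14). When the probe sets of each gene were averaged before the fit, Nebl passed with 0.42 ± 0.10 (SE; limma adjusted p 0.042). In that fit Flnc (0.55 ± 0.12, adjusted p 0.029) and Pdlim5 (0.50 ± 0.12, 0.038) passed as well, beside Mybpc2 and Tmod4. The share of all genes that passed in that fit is not given, so these calls are not set against a background. Neb itself read 3.95 to 4.57 without Cre and 3.82 to 4.37 with Cre, below the mean of 5.16 required for the test.

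Tropomyosin genes did not separate the groups. The 4 probe sets of Tpm1, the main cardiac tropomyosin, differed by -0.03 to 0.12. The 3 tested probe sets of Tpm2 differed by -0.17 to 0.37, with the brightest at the low end. Cap2, a regulator of actin turnover, had 2 probe sets with differences of 0.03 and 0.06. No probe set of these 3 genes passed the test.

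The MuRF proteins are ubiquitin ligases that mark muscle proteins for degradation, and MuRF1 binds titin near the M-band. Trim54, which encodes MuRF3, was at 10.85, 10.48 and 10.80 in no Cre hearts and at 10.37, 10.11 and 10.09 in carriers. Trim63, which encodes MuRF1, was at 12.14, 12.05 and 12.03 in no Cre hearts and at 11.77, 11.66 and 11.74 in carriers. Both were lower in all hearts with Cre. The differences were -0.52 ± 0.14 (SE; limma adjusted p 0.080) for Trim54 and -0.35 ± 0.11 (0.12) for Trim63, and neither passed. Without no_Cre 2, Trim54 differed by -0.63 and passed (0.047).

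**Figure D4:**
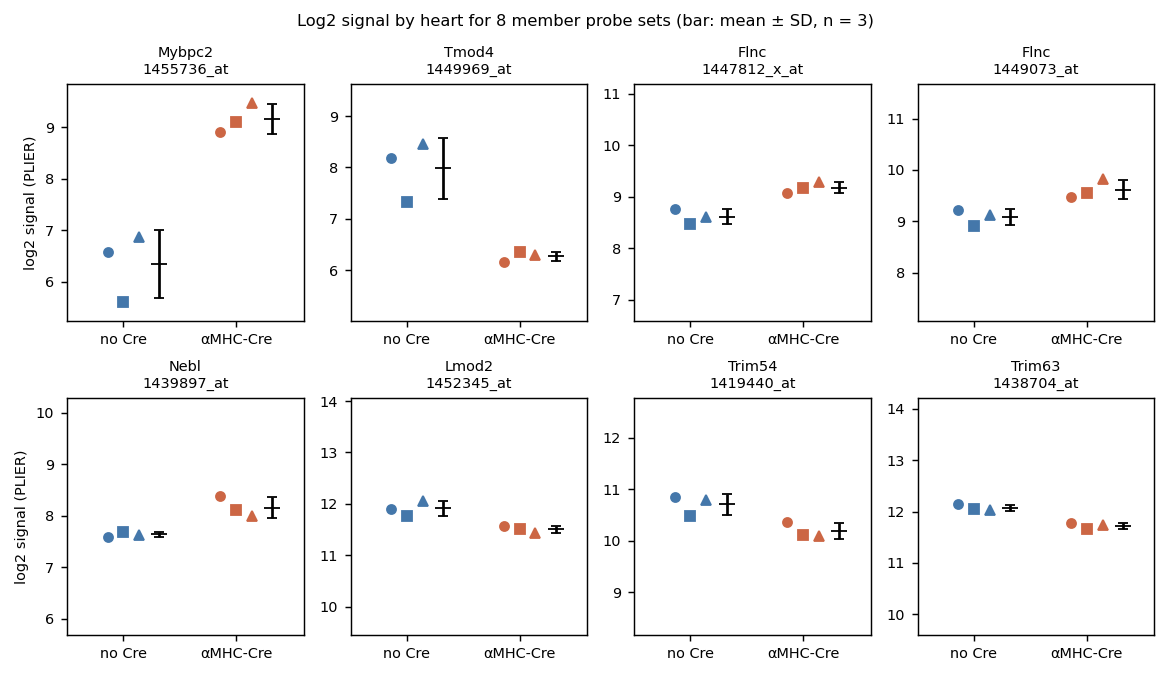
Log2 signal (y axis, 1 value per heart) of 8 member probe sets in no Cre hearts (blue) and αMHC-Cre hearts (orange), with the mean ± SD of each group (n = 3) as black bars; every panel spans the same range of log2 units and symbols mark replicate numbers 1 to 3. The groups do not overlap in any panel; of the probe sets drawn, Mybpc2, Tmod4 and Flnc 1447812_x_at passed.

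Several members read close to the top of the scale. The brightest probe sets of Myoz2, Tpm1, Cryab, Ttn and Myom2 had means of 13.50, 13.44, 13.34, 13.31 and 13.19, within 1 log2 unit of the highest array value. Myoz2 was at 13.53, 13.48 and 13.49 in no Cre hearts and at 13.51, 13.51 and 13.46 in carriers. These 5 probe sets differed by -0.03 to 0.09, and their groups overlapped. Of all 101 probe sets with a mean of 13 or more, 0 passed in the limma fit and 5 had an unadjusted p under 0.05, with differences of -0.33 to 0.40 and a median size of 0.06. In the range of 11 to 13, 5.39% of 1020 probe sets passed and 199 had an unadjusted p under 0.05. Of 19 members there, 0 passed and 3 had an unadjusted p under 0.05. All 5 member probe sets that passed had a mean under 11, where 11.4% of 44 members and 5.24% of all passed. Whether signals are compressed near the maximum was not tested, and equal values there do not show equal transcript levels.

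At the other end, 6 member probe sets were too dim to test. Besides Neb, they were single dim probe sets of Capzb, Myom2, Pdlim1, Smyd1 and Tpm2, each of which has brighter ones. That of Pdlim1 read 2.28 in no_Cre 1 and -9.93 to -7.82 in the other 5 hearts. No direction is given for any of these 6. The 5 probe sets that passed had group means above the limit of 5.16 in both groups.

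Other structural genes of the Z-disc, M-band, thin filament and cell-membrane attachment were set beside the members, from a list of 56 of which 48 were tested. Of these, 3 rose and 3 fell (12.5%, with a background of 6.24%). The whole list was chosen with earlier results of these data known, so setting this share against the background tests nothing. The median difference was 0.10. Myot, which encodes the Z-disc protein myotilin, was at 10.99, 10.86 and 9.65 in no Cre hearts and at 12.27, 11.92 and 11.82 in carriers, a rise of 1.51 ± 0.32 (SE; limma adjusted p 0.027). Lmod3, a leiomodin best known from skeletal muscle, rose by 0.72 ± 0.17 (0.041), where Lmod2 stood at -0.41. Vim, the intermediate filament gene vimentin of fibroblasts and other non-muscle cells, rose by 0.55 ± 0.13 (0.049) and by more on its 2 dimmer probe sets (0.018 and 0.028), and the summed fibroblast markers given above moved the same way.

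Synpo2, which encodes the Z-disc protein myopodin, fell by 1.06 ± 0.13 on the log2 scale (SE; limma adjusted p 0.0027), with 3 of its probe sets past the threshold. Its relative Synpo2l stood at 0.04. Fhod3, a formin that assembles cardiac thin filaments, read 11.35 in each of the hearts without Cre and 10.64, 10.41 and 10.54 with Cre, and fell by 0.82 ± 0.11 (0.0043). Klhl41, which encodes a kelch protein that stabilises nebulin, fell by 0.58 ± 0.13 (0.032). Synpo2 and Fhod3 kept their calls whichever heart was left out. Those of Lmod3 and Vim were lost in all 6 such fits (adjusted p 0.056 to 0.12 and 0.082 to 0.15), that of Klhl41 in 5 (up to 0.14) and that of Myot in 2 (up to 0.099).

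Fbxo32, chosen after its values were seen, encodes atrogin-1, a ubiquitin ligase of muscle like the MuRF proteins. On its brightest probe set it differed by -0.60 ± 0.16 (SE) without passing (limma adjusted p 0.072), while 2 dimmer probe sets fell, by 0.98 ± 0.20 (0.022) and 1.11 ± 0.13 (0.0019). Pdlim7, also chosen after its values were seen, rose by 0.68 ± 0.14 on its dimmest tested probe set (0.027). Its brightest differed by 0.21 (0.57).

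Within the groups, several hearts departed from their background for these genes. The heart no_Cre 2 was the lowest of its group in 35 of 68 member probe sets (51.5%), where it was lowest in 42.4% of all tested probe sets. For no_Cre 1 these shares were 22.1% and 36.6%, and for αMHC-Cre 1 they were 33.8% and 24.2%. The heart no_Cre 2 held the lowest value of its group for Mybpc2 and for Tmod4. Leaving it out gave 4 called member probe sets, of which 3 are among the 5 above. Mybpc2 and Tmod4 were the only members called in each of the 6 fits that left out 1 heart.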

How the data were processed

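RNA from the heart apex of each mouse was hybridised to 1 Affymetrix array, and the titles call the arrays biological replicates. The values that the authors deposited are log2 signals, 1 for each probe set in each heart, made with PLIER per the submitters' processing notes. PLIER's settings, and whether arrays were normalized together, were not stated, and base 2 was inferred from the values. No detection calls were used, so no gene is called absent, and the number of arrays limits the precision. No probe position was used.

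Of 45101 probe sets, 64 controls and the 40% of the rest with the lowest mean (18015, mean up to 5.16) were left out, and 27022 were tested without further normalization. The 2 groups entered 1 two-sided limma fit (version 3.58.1, under R 4.3.3, with lmFit and then eBayes). Benjamini-Hochberg adjustment ran over all tested probe sets, and the threshold was 0.05. "Rose" and "fell" mean past that threshold, and 95% intervals come from the same fit. A gene stands by its brightest probe set unless another is named. Probe sets were named from the platform annotation where it gives 1 symbol. All 32 member symbols were found in the RefSeq gene table.

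The members and all lists were chosen with earlier results of these data known. Full values are given for members past the threshold, each heart's values for those whose groups do not overlap, and values for members near the array maximum or too dim; the other listed structural genes are named where they passed, with at most 6 in each direction. Promoter windows come from RefSeq, build GRCm38.p6. Alternatives were quantile normalization, median centring, other filters, other variance settings, array weights, a replicate block, 16 or 64 added to the unlogged signal, other thresholds, other ways to represent a gene, and leaving out each heart. On simulated data for this comparison (27022 probe sets tested), the procedure recovered 79.8% of 94 2-fold and 98.9% of 88 4-fold changes among changed probe sets that were tested. There were 12 false calls among 174. The simulated noise was normal and independent between probe sets, and the signal had no upper limit. These rates thus do not cover probe sets near the array maximum, or data with another share of changed probe sets.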

Additional observations from a re-analysis of the deposited data

How the results depend on the processing

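Of 15 alternatives run for each, Mybpc2 and Tmod4 kept their direction in 15 and their call in 14, losing it without a filter (adjusted p 0.056 and 0.11). The count of all called probe sets was 275 without a filter, 909 with the replicate block, 2220 at an adjusted p of 0.1, 529 at 0.01, and 600 to 1075 when 1 heart was left out. Called member probe sets numbered 8 with quantile normalization, 0 without a filter in limma (16 of 74 had an unadjusted p under 0.05), 9 with the lowest 60% left out, 15 with trend and robust variance, 9 with array weights, 2 with the replicate block, 10 and 13 with 16 and 64 added to the unlogged signal, 10 at 0.1, 2 at 0.01, and 2 to 4 without single hearts. The 15 with trend and robust variance included all 5 probe sets called in the report and, among others, Lmod2, Mybpc3, Nebl, Tcap, Trim54 and Trim63. Called member genes numbered 0 without a filter, 4 with the lowest 60% left out, 9 with trend and robust variance, 4 and 7 with 16 and 64 added, 4 at 0.1, 5 in the mean over probe sets, 4 by any probe set, and 2 to 3 without single hearts. Other structural genes called numbered 1 without a filter (Fhod3), 10 with the lowest 60% left out, 10 with trend and robust variance, 10 with 16 or with 64 added, 11 at 0.1, 2 at 0.01, and 2 to 4 without single hearts. For quantile normalization, the 60% filter, trend and robust variance, array weights and added signal, no count over all probe sets is given. No count over all genes is given for any alternative. Member counts there are thus not set against a background and are not a result about the members. The cause of these shifts was not tested. Signs turned only for differences that did not pass: with quantile normalization Myoz2 was 0.024 and Ttn 0.0019, with array weights Synpo2l was -0.065, and without single hearts Myoz2 ranged from -0.015 to 0.013, Ttn from -0.047 to 0.022, Synpo2l from -0.20 to 0.17, Myom1 from -0.0070 to 0.14, Smyd1 from -0.043 to 0.13, Cap2 from -0.0060 to 0.067, Pdlim3 from -0.018 to 0.40 and Tpm1 from -0.093 to 0.024. Deviations of same-numbered hearts from their group means had correlations over probe sets of -0.06, 0.21 and -0.19. With 3 hearts per group, these values cannot decide whether the numbers pair the samples. The replicate block kept only the member calls of Mybpc2 (limma adjusted p 0.0061) and Tmod4 (0.023).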
